A study of Mus musculus with 12 samples.

Results

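Primary hepatocytes, the parenchymal cells of the liver taken into culture, were sequenced after an siRNA against ABHD6 or a scrambled siRNA, as 6 of the 12 mouse libraries of the study and 2 of its 4 groups. The members are the 3 libraries labelled ABHD6 knockdown (siABHD6) and the 3 labelled wild type (siScramble), chosen by their labels and compared across all expressed genes. Neither group carried another treatment according to the labels. The labels name no strain, sex or age of the donor mice, no time after transfection, and neither the number nor the sequence of the siRNAs. The other 6 libraries, livers of mice fed a high-fat diet with ABHD6 overexpression or GFP, are not part of the main fit. They serve for marker levels, for 1 set of fold changes and for 1 alternative fit. The library names call the 3 libraries of a group biological replicates, but the labels do not say whether they came from separate cultures or mice. The p-values thus measure the spread between these libraries, and how much of it is technical is not known.

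ABHD6 is a membrane-bound serine hydrolase that cleaves monoacylglycerols, among them the endocannabinoid 2-arachidonoylglycerol, and the study's title names Akt, a kinase of insulin signalling, and FoxO1, a transcription factor that Akt restrains. An siRNA is a short double-stranded RNA whose guide strand directs an Argonaute protein to cut a matching mRNA. A guide strand can also lower other mRNAs that pair with its seed, the bases near its 5′ end, mostly through sites in 3′ UTRs. Cultured hepatocytes lose part of the expression programme of the liver and keep others, such as the secretion of plasma proteins.

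Poly-A RNA was counted per gene by the authors, with 12295733 to 14453320 counts in the siABHD6 libraries and 12395020 to 13687998 in the siScramble libraries. Levels are given as CPM, counts per 1000000 of the TMM effective library size, a library total adjusted so that most genes keep their level, and a fold change is log2 of siABHD6 over siScramble with its standard error (SE). CPM is not scaled to gene length, so it compares a gene between libraries and not one gene with another. Mitochondrial transcripts made up 3.03% to 3.35% of the counts. No pair of replicates was alike within sampling noise: chi-square per gene ran from 2.59 to 4.04 within groups and from 8.93 to 12.5 between them. The first principal component (36.7% of the variance) placed the siScramble libraries at -16.3 to -14.8 and the siABHD6 libraries at 13.2 to 17.1.

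The label of the cells was checked against hepatocyte markers. Each of the 18 marker genes was detected, and together they held 31259 to 33973 CPM in the cultures and 110760 to 148740 CPM in the 6 livers. The makeup differed from liver: Alb (albumin) ran from 11130 to 12082 CPM in culture and from 38329 to 86811 CPM in liver, and Cps1, which encodes the first enzyme of the urea cycle, from 38.9 to 51.4 CPM and from 2086 to 3970 CPM. Markers that define Kupffer cells were near 0 in culture, with 6 counts of Clec4f and none of Timd4 over the 6 libraries. No count was found for the T cell gene Cd3e or for the red cell gene Hbb-bs. Of the cholangiocyte markers, Spp1 (osteopontin) was at 629 to 854 CPM in culture and 39.2 to 63.0 CPM in liver, and Sox9, a transcription factor gene of bile duct cells, at 38.7 to 46.0 and 3.76 to 8.44 CPM. Krt19 and Prom1 were also higher in culture by range, whereas Epcam was at 0.0691 to 0.565 CPM in culture and 0.248 to 2.79 CPM in liver, and Cftr had no count in culture.

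The targeted gene was low in each siABHD6 library. On chromosome 14 of mm39 (14413010 to 14466871, minus strand in the deposited table), Abhd6, with the identifier ENSMUSG00000025277, was at 4.94, 5.26 and 5.07 CPM with siABHD6 and at 36.9, 33.7 and 33.8 CPM with siScramble. The groups were far apart, and the gene fell by 2.77 on the log2 scale (SE 0.10, adjusted p = 3.14e-13 in edgeR's quasi-likelihood test). Its nearest counterparts in monoacylglycerol breakdown did not pass: Mgll, the main monoacylglycerol lipase gene, had a log2 fold change of 0.17 (SE 0.08, adjusted p = 0.161) and Abhd12, another serine hydrolase of these lipids, of 0.03 (SE 0.07, adjusted p = 0.795). Of 9 tested genes for monoacylglycerol and endocannabinoid enzymes, only Abhd6 and Napepld, which encodes the phospholipase that releases N-acylethanolamines, were called (Napepld -0.30, SE 0.08).

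Of 13449 genes tested, 2075 were called at an adjusted p under 0.05 in edgeR (15.4%). Of these, 1051 were higher (7.81%) and 1024 lower (7.61%) with siABHD6, and 46 and 50 of them changed at least 2-fold. Detection rose with level. With genes divided by mean level into 5 classes of equal size, 3.83% were called in the lowest and 31.2% in the highest, where the median size of a called change was only 0.19 on the log2 scale. The groups did not overlap in 31.2% of all genes tested, called or not. The strongest evidence lay on the lower side: 9 of the 10 genes with the smallest p and 18 of the first 20 fell, whereas over the first 100 the count was 60. Summed over genes, those called lower fell by 28127 CPM and those called higher gained 28248 CPM, and Eef1a1 alone made up 15.1% of the fall. Within a bulk culture, fewer cells of a type and less RNA per cell cannot be told apart.

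**Figure D1:**
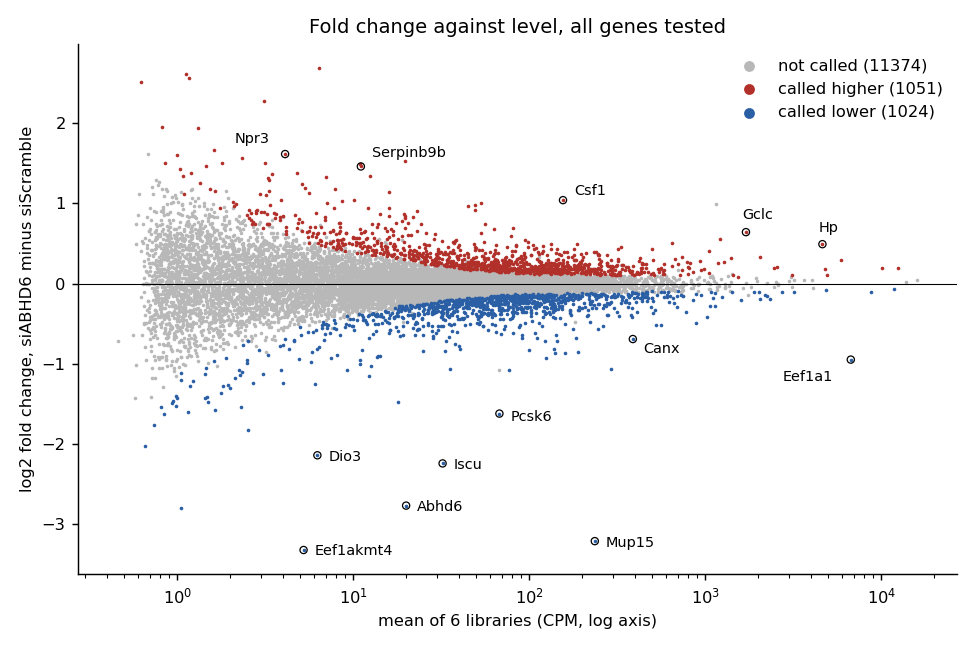
Log2 fold change (siABHD6 minus siScramble) against the mean level over the 6 libraries in CPM on a log axis, 1 point per gene, with called genes coloured by direction. Abhd6, Eef1akmt4, Iscu, Dio3 and Pcsk6 lie far below the cloud at their level, and Eef1a1 stands out among the genes of high count (-0.95).

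Genes with the smallest p on the lower side were described first. Eef1a1 encodes the elongation factor that brings aminoacyl-tRNA to the ribosome. It was at 4292, 4665 and 4751 CPM with siABHD6 and at 8914, 8802 and 8735 CPM with siScramble. Each siABHD6 library was well below each control library (log2 fold change -0.95, SE 0.03, adjusted p = 2.32e-14). Pcsk6, a gene for a proprotein convertase, was at 30.8, 33.8 and 34.8 CPM against 102, 101 and 103 CPM (-1.62, SE 0.05). Iscu, the gene of the scaffold protein for iron-sulfur clusters, was at 10.5, 10.7 and 12.4 CPM against 52.6, 49.9 and 56.7 CPM (-2.24, SE 0.08). Both genes showed the same separation, with replicates close to each other. Zmpste24, the protease gene of lamin A maturation, was at 102, 98.9 and 96.8 CPM against 181, 184 and 176 CPM. Vps4b, an ATPase gene of the ESCRT machinery, was at 75.2, 71.1 and 67.6 CPM against 126, 128 and 126 CPM. Pcsk6 shares its locus with noncoding genes on both strands, and whether counting used strand is not stated.

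The largest fall among the protein-coding genes named was that of Eef1akmt4, a lysine methyltransferase gene whose substrate is the Eef1a1 protein. Its level was 0.567, 0.762 and 1.51 CPM with siABHD6 and 9.18, 9.58 and 9.71 CPM with siScramble (-3.32, SE 0.24, adjusted p = 1.03e-08). The fall was larger than that of Abhd6 by value, at a low level. The gene overlaps Alg3 on the opposite strand and Gm49333 on the same strand, with which reads may be shared. Dio3, which encodes the deiodinase that inactivates thyroid hormone, stood at 1.62, 2.70 and 2.54 CPM against 9.70, 9.29 and 11.7 CPM (-2.14, SE 0.19). Mup15, of the major urinary protein family, reads as lower (-3.21, SE 0.52), but its control libraries held 764, 51.7 and 459 CPM and its siABHD6 libraries 44.9, 51.4 and 40.7 CPM. One control library thus lay next to the siABHD6 group, and reads of this gene family can be shared between near-identical copies. Other large falls were of Fam171b (-1.25, SE 0.19), the E3 ligase gene Neurl3 (-1.24, SE 0.21), Bmp2, a growth factor gene (-1.18, SE 0.33), and Nsmce3, of the SMC5/6 complex (-1.15, SE 0.12).

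On the higher side the smallest p belonged to Csf1, which encodes the growth factor of macrophages. It was at 215, 200 and 211 CPM with siABHD6 and at 101, 100 and 103 CPM with siScramble. The groups were separated by about the size of the control level (log2 fold change 1.04, SE 0.04, adjusted p = 8.56e-13). Aldh1a1, a retinaldehyde dehydrogenase gene, was at 1464, 1331 and 1504 CPM against 976, 965 and 974 CPM (0.56, SE 0.04). Gclc, the catalytic subunit of the first enzyme of glutathione synthesis, was at 2297, 1936 and 1977 CPM against 1331, 1305 and 1345 CPM (0.64, SE 0.04). Gadd45b, a gene of the growth arrest and DNA damage family, was at 72.7, 68.0 and 70.1 CPM against 41.5, 41.2 and 42.9 CPM (0.75, SE 0.05). None of these groups overlapped. Fam149a (0.92, SE 0.06), the sphingomyelinase gene Smpd3 (0.68, SE 0.05) and Marcksl1, which encodes an actin-binding protein (1.00, SE 0.08), complete the 8 with Hp, the haptoglobin gene (0.49, SE 0.03). The largest increases by fold were at low levels. Npr3, the clearance receptor gene of natriuretic peptides, was at 6.23, 5.26 and 7.05 CPM against 1.94, 1.83 and 2.27 CPM (1.62, SE 0.22), and Serpinb9b, a serpin gene, at 17.4, 14.6 and 16.6 CPM against 4.93, 6.00 and 6.72 CPM (1.46, SE 0.14). Timp2, an inhibitor of metalloproteinases (1.35, SE 0.16), Ms4a4d (1.32, SE 0.20), Pcolce, of procollagen processing (1.24, SE 0.21), Glis2, a zinc finger gene (1.19, SE 0.18), and Rec8, the meiotic cohesin gene (1.18, SE 0.15), were also among the 12 largest.

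**Figure D2:**
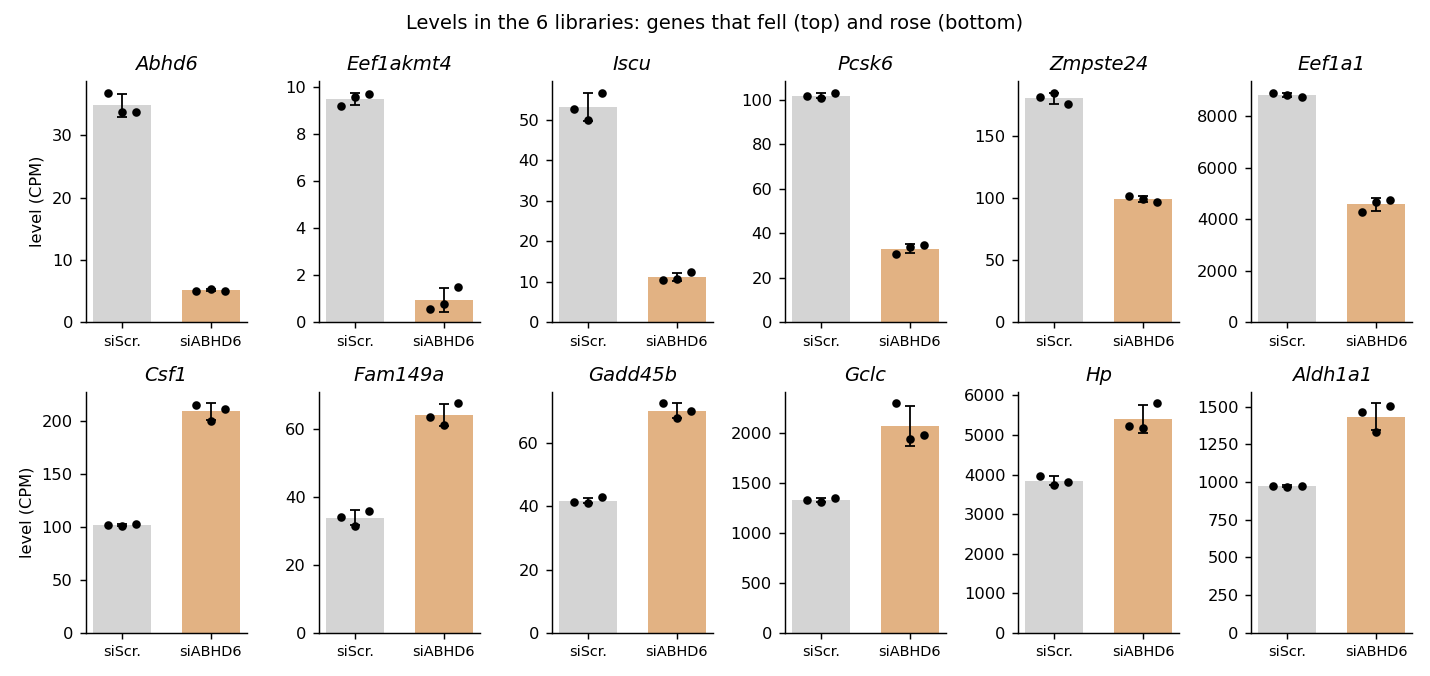
Level in CPM (linear axis from 0) of 6 genes that fell and 6 that rose, with points for the 3 libraries of each group, bars for their mean and whiskers for the SD. In all 12 panels the groups are apart, from Eef1akmt4 (9.49 to 0.945 CPM on average) to Hp (3839 to 5398 CPM).

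Part of the mRNAs that fell had short sequences in common. Each 7-base word present in the 3′ UTR of at least 100 of 11612 protein-coding genes (15648 words, read on the mRNA strand) was ranked by how far the fold changes of its carriers lay from those of other genes. The ranking used the fold changes themselves, so what follows is a description with no test. The 6 words at the lower end are shown because they overlap or differ by a single letter, with letters equal to CTACGC, the stretch common to the first 2 words, in capitals.

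word 1: gCTACGC
word 2: CTACGCa
word 3: gCTAtGC
word 4: CTACGCt
word 5: gCTtCGC
word 6: tgCTAtG

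Word 1 was in the 3′ UTR of 100 genes (0.861%), of which 30 were called lower and 5 higher. Over all genes searched, 8.42% were called lower and 8.78% higher. Word 2 had 138 carriers with 43 lower and 6 higher, and word 4 had 176 with 43 lower and 8 higher. Word 3 (693 carriers, 113 lower and 50 higher), word 5 (185, 41 and 10) and word 6 (1291, 163 and 100) leaned the same way. Carriers of word 1 had longer 3′ UTRs than genes in general, with a median of 2546 bases against 1172 bases. In the livers, where the label is overexpression, the median fold change of the carriers was 0.02 against -0.01 for other genes. The lean was also present outside the 3′ UTR: among 568 genes with word 1 in the mRNA but not in its 3′ UTR, 131 were called lower (23.1%) and 34 higher (5.99%). Among 6687 genes with none of the 6 words in the mRNA, 5.71% were lower and 9.45% higher. These held 382 of the 978 genes called lower among those searched. Of the 40 genes called lower with the smallest p, 37 held at least 1 of the 6 words in the mRNA, against 13 of the 40 called higher with the smallest p and 4925 of all 11612. At the other end of the ranking stood words rich in A and T, TGAATAT first (1586 carriers, 105 lower and 199 higher).

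**Figure D3:**
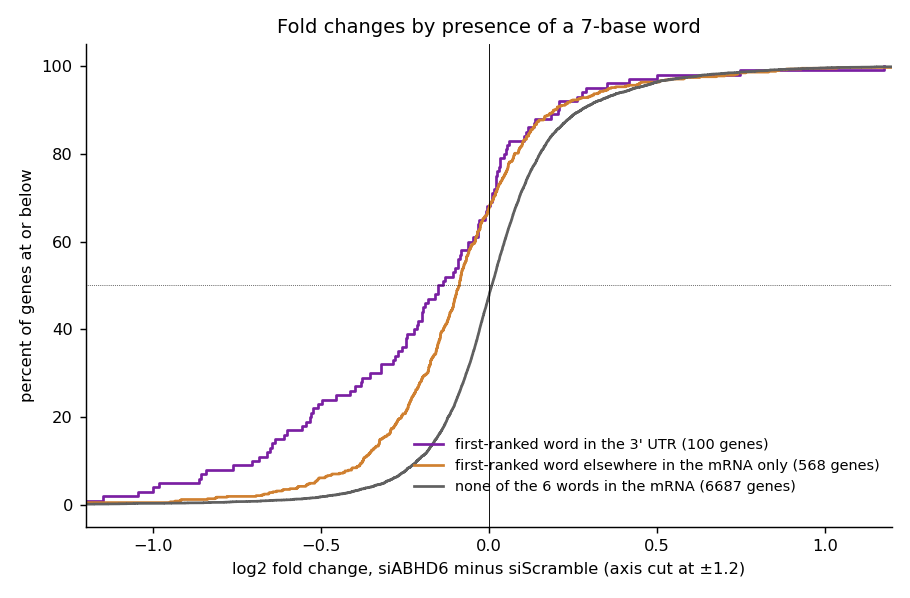
Share of genes (percent, vertical axis) at or below each log2 fold change (horizontal axis, cut at 1.2 on both sides), for genes with the first-ranked word in the 3′ UTR (100), elsewhere in the mRNA only (568) and for genes with none of the 6 words (6687). The first curve runs to the left of the third below 0, with medians of -0.14, -0.09 and 0.01.

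Abhd6 itself holds word 1 once, in its coding sequence, followed by the A of word 2. A 21-base window around that place was compared, without gaps, with each mRNA of the genes searched. The best match outside Abhd6 was in the coding sequence of Eef1akmt4, with 18 of 21 bases equal and a run of 15 equal bases, and 2 genes reached 17, neither of them called. Sequences are shown 5′ to 3′ on the mRNA strand with bases equal to those of Abhd6 in capitals, for the best matches and for Eef1a1, which is 1 of 16 genes with 16 equal bases and was picked for its fall. They come from GENCODE M21 transcripts on build GRCm38.

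Abhd6: GGCATGCAAGTTCGCTACGCA
Eef1akmt4: GcCATGCAAGTTCGCTAtGCc
Ubald1: cGCATGCAAGTTCaCagCGCA
Rspry1: GGCATGCAAcTTCtgTAgGCA
Eef1a1: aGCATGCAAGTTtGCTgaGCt

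The Abhd6 window lies at chr14:8039767-8039787 (plus strand) and that of Eef1akmt4 at chr16:20617715-20617735 (plus strand). Counted from 1 at the 5′ end of the Abhd6 window, Eef1akmt4 differs by G2C, C18T and A21C. Ubald1 carries its match in the 3′ UTR (chr16:4875327-4875347, minus strand) and differs by G1C, G14A, T16A and A17G. It was at 36.0, 36.1 and 36.2 CPM with siABHD6 and at 34.9, 39.7 and 37.7 CPM with siScramble, groups that overlap. Rspry1, also matched in its 3′ UTR (chr8:94623751-94623771, plus strand), had a log2 fold change of 0.20 (SE 0.07, adjusted p = 0.0548). Eef1a1 matched at 16 bases (coding, chr9:78479098-78479118, minus strand), where 4 of the 16 genes were called lower and 1 higher. Over all genes searched, 8.42% were called lower and 8.78% higher. The 4 were Eef1a1 itself, Alb (-0.06), Helz2 (-0.18) and Zbtb21 (-0.23). Since the siRNA sequence was not given, the window was set by the word and not by the siRNA, and the part of pairing with the siRNA in any of these changes was not tested.

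Further places of the words are shown for genes with the smallest p on the lower side, chosen after their values were seen, with the word in capitals and 30 bases each, also from GRCm38. The first 7 lie in 3′ UTRs.

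Pcsk6: gagaatctatgtCTACGCAgtcagctcctt
Zmpste24: ttatttcctacaGCTACGCagagcagccca
Vps4b: tctttgccttgtCTACGCAgtgtcttttat
Alg10b: tgatgacagtgtGCTACGCtttaatgtatt
Man1b1: tgaggtatagtaGCTACGCtggggacttcc
Steap4: tttagctagtaaGCTACGCaaatactaata
Iscu: ctctcggcttctGCTTCGCccatagcctca
Eef1a1: aaatcagtgctgGCTACGCtcctgttctgg
Rpl6: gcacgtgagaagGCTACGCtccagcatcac
Rpl32: tcccaacgccagGCTACGCagcgaagaaaa
Eif2ak3: atgccagcctatGCTACGCacacgggacaa
Dio3: gcgcatcctcgaCTACGCAcaagggacccg

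In 3′ UTRs these are at chr7:66049576-66049605 (Pcsk6, plus strand), chr4:121059365-121059394 (Zmpste24, minus), chr1:106771779-106771808 (Vps4b, minus), chr15:90232242-90232271 (Alg10b, plus), chr2:25351672-25351701 (Man1b1, plus), chr5:7981476-7981505 (Steap4, plus) and chr5:113777123-113777152 (Iscu, plus). The coding places are at chr9:78479138-78479167 (Eef1a1, minus), chr5:121206735-121206764 (Rpl6, plus), chr6:115805566-115805595 (Rpl32, minus), chr6:70897021-70897050 (Eif2ak3, plus) and chr12:110279678-110279707 (Dio3, plus). They belong to genes with roles from translation (Eef1a1, Rpl6, Rpl32) to N-glycans (Alg10b, Man1b1) and iron (Iscu, Steap4). Alg10b, a glucosyltransferase gene of N-glycan assembly, was at 70.4, 67.9 and 71.1 CPM against 112, 114 and 110 CPM. Man1b1, a mannosidase gene of glycoprotein disposal, was at 70.3, 70.3 and 71.5 CPM against 108, 113 and 108 CPM. Steap4, a metalloreductase gene, was at 124, 127 and 154 CPM against 241, 236 and 257 CPM. In each of these the groups did not overlap.

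Changes were then read by function, over 64 lists of genes other than cell type markers. For each list the counts called higher and lower are given beside the median log2 fold change of its tested genes, where the median over all genes tested was -0.0024. In 34 lists at least 4 genes were called and at least 75% of these moved in one direction. Counts and shares of the lists were not matched for level. The share called over all genes ran from 3.83% in the lowest class by level to 31.2% in the highest.

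**Figure D4:**
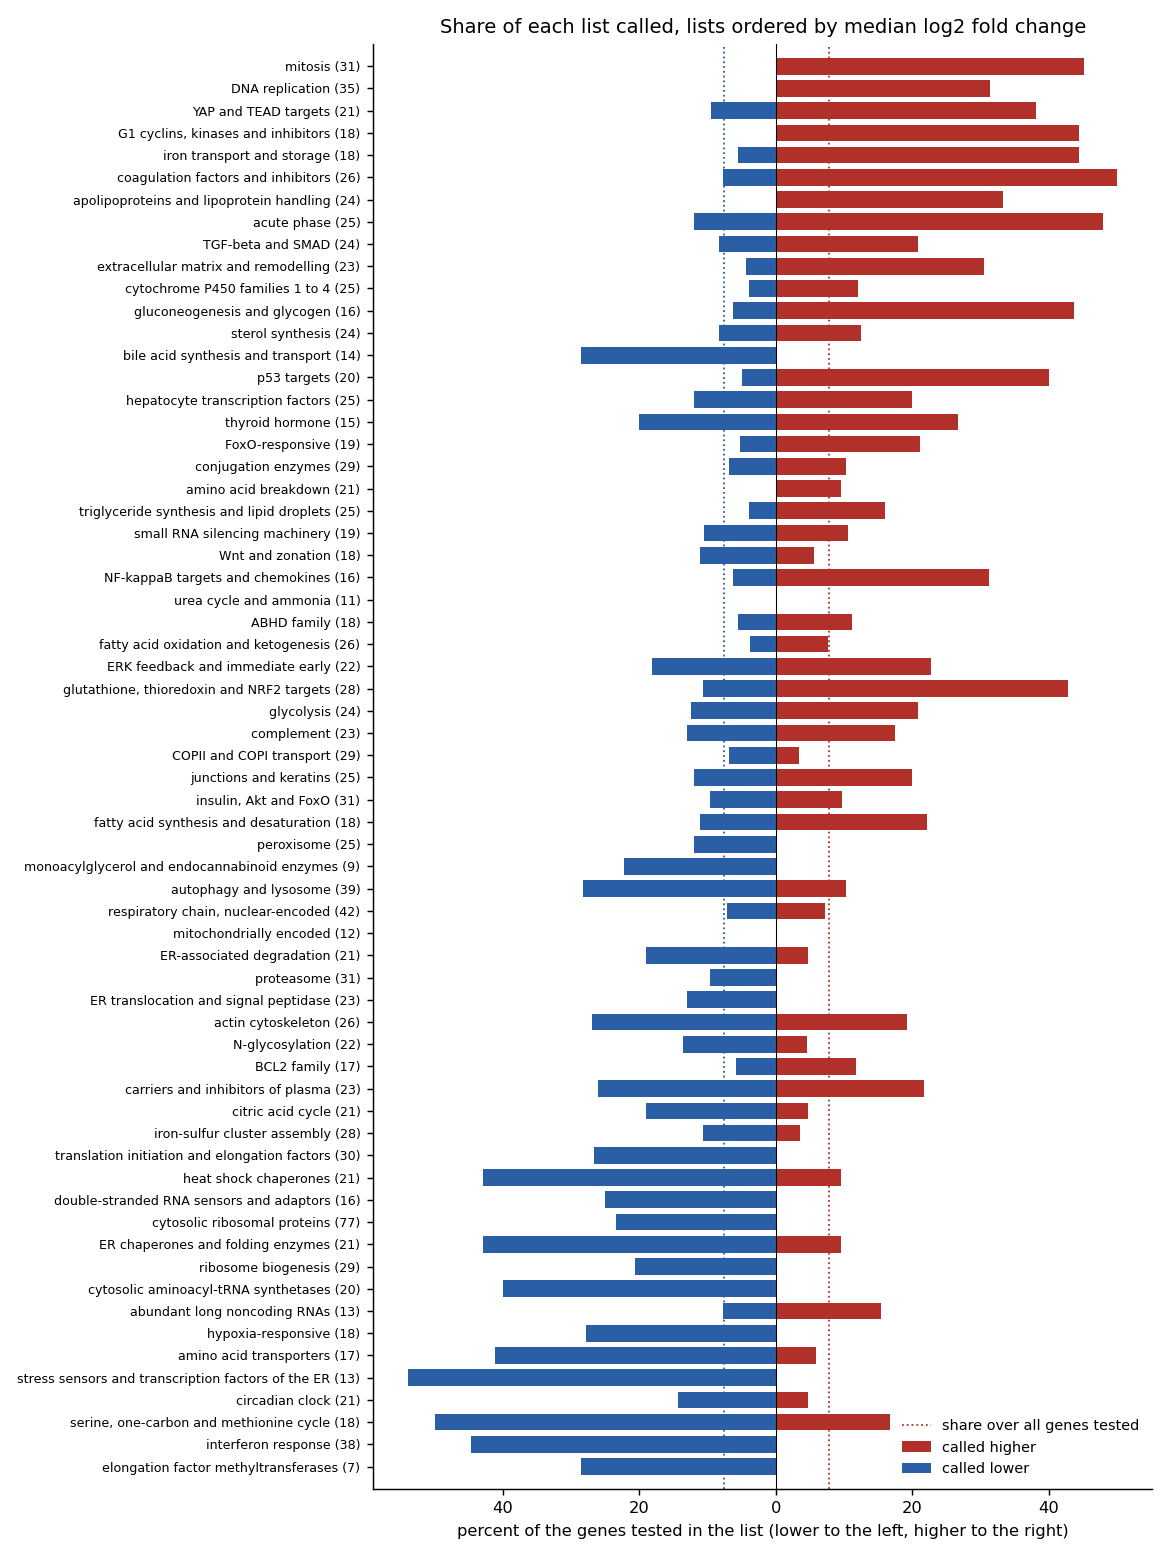
Percent of each list's tested genes (number in brackets) called higher, to the right, and lower, to the left, with lists in the order of their median log2 fold change and dotted lines at the shares over all genes tested (7.81% higher and 7.61% lower). Mitosis and DNA replication stand at the top with no gene called lower, and the lists of ER stress sensors, one-carbon metabolism and interferon response lie near the bottom.

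Genes of proliferation were higher. Of 31 genes of mitosis 14 rose and none fell (median 0.46, all 31 with a positive fold change), of 35 genes of DNA replication 11 rose and none fell (0.23), and of 18 genes of G1 control 8 rose and none fell (0.18). Ccnd1, which encodes cyclin D1, was at 21.5, 19.7 and 24.9 CPM against 10.6, 10.02 and 9.31 CPM. Cdc20, an activator of the anaphase-promoting complex, was at 16.4, 15.9 and 15.7 CPM against 8.36, 7.82 and 8.82 CPM. Mcm4, of the replicative helicase, was at 32.2, 31.1 and 30.6 CPM against 19.3, 18.1 and 23.5 CPM. All 3 genes had groups that did not overlap, at low levels throughout. The inhibitor gene Cdkn1a also rose (0.23, SE 0.04), and of 20 p53 target genes 8 rose, among them Perp, which was at 276, 277 and 276 CPM against 214, 216 and 214 CPM, and Tnfrsf10b, a death receptor gene, fell (-0.23, SE 0.05). Without siScramble 2 the mitosis count was 9, and without siScramble 1 those of DNA replication, G1 control and p53 targets were 7, 5 and 5. Without siABHD6 3 the count of G1 control was also 5.

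The secretory pathway was lower at specific steps. Among the stress sensors and transcription factors of the endoplasmic reticulum (ER), 7 of 13 fell and none rose (median -0.14). All 3 sensor genes were lower: Eif2ak3 (PERK) was at 52.4, 54.9 and 54.1 CPM against 84.1, 80.6 and 85.6 CPM, Atf6 fell by 0.49 (SE 0.04) and Ern1 (IRE1) by 0.38 (SE 0.05) on the log2 scale. Among ER chaperones and folding enzymes, 9 of 21 fell and 2 rose. Canx (calnexin) was at 283, 294 and 311 CPM against 473, 484 and 477 CPM, Hspa5 (BiP) at 918, 893 and 816 CPM against 1104, 1200 and 1206 CPM, and Pdia5, a disulfide isomerase gene, rose (0.24, SE 0.06). Single genes stood out in other steps. In N-glycosylation 3 of 22 fell and 1 rose, and the list's median was -0.04. Those that fell were Stt3a, the catalytic subunit of oligosaccharyltransferase (-0.87, SE 0.05), Alg10b (-0.68, SE 0.04) and Uggt1, the folding sensor (-0.61, SE 0.05). In ER-associated degradation 4 of 21 fell, led by Edem1 (80.5, 89.3 and 87.3 CPM against 167, 162 and 163 CPM), and 1 rose. The shares called in these lists were 18.2% and 23.8%, against 15.4% over all genes. Of 29 genes of COPII and COPI transport only 2 fell and 1 rose.

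Whether an mRNA held 1 of the 6 words moved with these counts in some lists and not in others. Over all genes searched, 12.1% of those with a word and 5.71% of those without were called lower. In ER-associated degradation the 4 lower genes were among the 11 with a word, and none of the 10 without was lower. The same split was 3 of 7 and 0 of 15 in N-glycosylation, 3 of 11 and 0 of 12 in ER translocation, 3 of 10 and 0 of 18 in iron-sulfur cluster assembly, and 6 of 12 and 1 of 5 among amino acid transporters. In the interferon list it was 5 of 13 and 12 of 25, among aminoacyl-tRNA synthetases 2 of 8 and 6 of 12, and among ribosomal proteins 4 of 14 and 10 of 43. Among mitosis genes 3 of 13 with a word and 11 of 18 without rose. The words had been ranked by the fold changes of these same genes, so the splits are a description and cannot serve as a test. The part of the words in these lists was not tested.

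Genes of amino acid supply and translation were lower. Of 18 genes of serine, one-carbon and methionine metabolism 9 fell and 3 rose (median -0.21). Mthfd2, a mitochondrial folate enzyme gene, was at 24.0, 22.1 and 20.7 CPM against 34.2, 32.0 and 34.3 CPM, and Shmt1, the cytosolic serine hydroxymethyltransferase gene, at 42.7, 45.6 and 42.2 CPM against 59.6, 57.6 and 59.6 CPM, whereas Bhmt, which remethylates homocysteine, rose (0.45, SE 0.11). Of 17 amino acid transporter genes 7 fell, among them Slc3a2 (-0.39, SE 0.04) and its cystine-transporting partner Slc7a11 (-0.41, SE 0.05), and Slc38a3 rose (0.22, SE 0.04). Of 20 cytosolic aminoacyl-tRNA synthetase genes 8 fell and none rose (median -0.10), with 5 without siScramble 2. Of 30 translation factor genes 8 fell and none rose. Beside Eef1a1 these included Eif2s3x, a subunit gene of initiation factor eIF2 (-0.41, SE 0.04), Eif4b (-0.33, SE 0.04) and Eef2 (-0.11, SE 0.03), so most were far smaller changes. None of 11 urea cycle genes passed edgeR's adjusted threshold.

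Of 77 cytosolic ribosomal protein genes 18 fell and none rose, with a median of only -0.08. Rpl6 was at 451, 473 and 466 CPM against 658, 674 and 653 CPM, and Rpl32 at 187, 205 and 201 CPM against 295, 296 and 288 CPM. Both hold word 1 in the coding sequence. Rpl7a (-0.72, SE 0.15) and Rpl27 (-0.48, SE 0.05) fell by similar amounts, and Rpl12 by 0.18 (SE 0.04) on the log2 scale. Processed copies in the genome may share reads of these genes. Without single libraries the count was as low as 10 (without siScramble 2), and 11 without siScramble 3, siABHD6 1 or siABHD6 3. Of 29 ribosome biogenesis genes 6 fell and none rose, with 3 without siScramble 2.

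Interferon-stimulated genes were lower: 17 of 38 fell and none rose (median -0.22). Rsad2 (viperin) was at 89.9, 115 and 74.6 CPM against 136, 170 and 154 CPM. Oas3, which makes the activator of RNase L, was at 7.12, 13.7 and 7.13 CPM against 16.6, 19.5 and 17.6 CPM. One siABHD6 library, siABHD6 2, lay nearer to the controls in both genes. Over the list the mean log2 CPM relative to the 6 libraries was -0.16, 0.02 and -0.26 in siABHD6 1, 2 and 3 and 0.10 to 0.17 in the siScramble libraries. Without siABHD6 2, 24 genes were called lower (median -0.27), and without any other library 15 to 17. Without siABHD6 3 the median was -0.14. Of 16 genes of double-stranded RNA sensing 4 fell, among them Dhx58 and Irf7, which the interferon list also holds, and Adar, an RNA editing enzyme gene (-0.25, SE 0.04). In the small RNA silencing machinery, which siRNAs use, 2 of 19 rose and 2 fell. Ago1 fell (-0.24, SE 0.04) and Ago2, the Argonaute that cuts its targets, rose (0.17, SE 0.04).

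**Figure D5:**
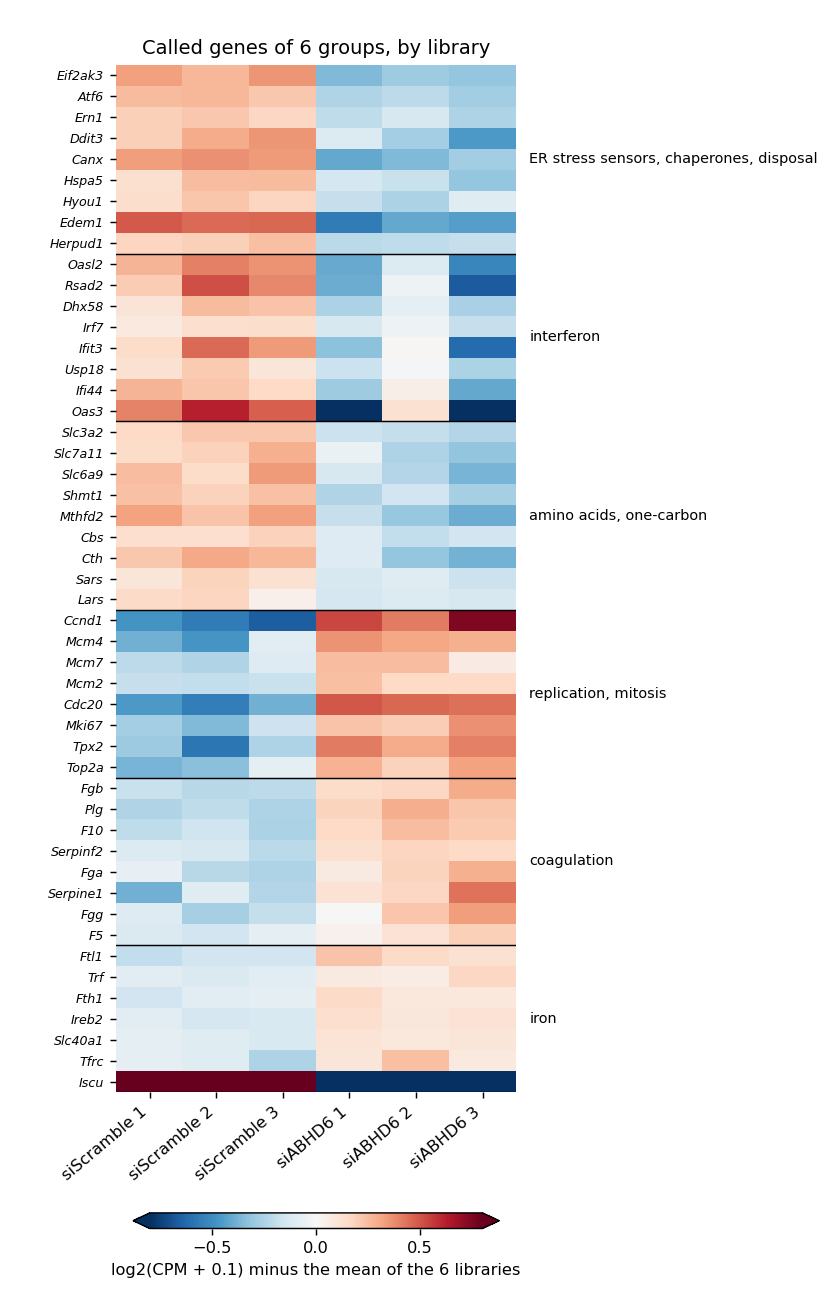
Log2(CPM + 0.1) of called genes of 6 groups in each library, relative to the gene's mean over the 6 libraries, with red above and blue below it. The genes are those with small p in their lists, taken after their values were seen, and siABHD6 2 is paler than the other siABHD6 libraries across the interferon genes (Oas3 13.7 CPM against 7.12 and 7.13 CPM).

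Genes called in the heat shock list were mostly lower and those in the NRF2 list mostly higher, each with exceptions. The list medians were -0.07 and 0.03. Of 21 heat shock chaperone genes 9 fell and 2 rose, with Hspa1a at 6.72, 7.69 and 7.53 CPM against 14.8, 15.6 and 13.5 CPM, and Cryab, a small heat shock protein gene, higher (0.84, SE 0.13). Hspa1a and Hspa1b are near copies that can share reads. Of 28 genes of glutathione, thioredoxin and other NRF2 targets 12 rose and 3 fell, and without siScramble 1 the count that rose was 7. Hmox1 (heme oxygenase) was at 220, 199 and 197 CPM against 146, 157 and 155 CPM and Osgin1 at 1631, 1545 and 1469 CPM against 1242, 1267 and 1214 CPM. Ephx1, the microsomal epoxide hydrolase gene, went the other way, with 746, 714 and 740 CPM against 1022, 1016 and 1046 CPM, and its 3′ UTR holds word 5.

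Genes of iron transport and storage were mostly higher, with 8 of 18 called higher and 1 lower (median 0.17). Of 28 genes of iron-sulfur cluster assembly 3 fell, led by Iscu, and 1 rose (median -0.05), a share called of 14.3% against 15.4% over all genes. Both ferritin subunit genes rose: Ftl1 was at 2372, 2248 and 2206 CPM against 1766, 1823 and 1823 CPM, and Fth1 at 2809, 2681 and 2687 CPM against 2276, 2373 and 2406 CPM. Tfrc, the transferrin receptor gene, rose as well (83.1, 92.1 and 82.0 CPM against 73.9, 72.8 and 65.5 CPM), as did Ireb2, an iron regulatory protein gene (0.23, SE 0.04), and Slc40a1, the iron exporter ferroportin gene (0.19, SE 0.04). Tfr2, the iron-sensing receptor gene, fell (-0.19, SE 0.04). Fdx1, a ferredoxin gene, was the assembly gene that rose (0.40, SE 0.07). None of the 12 mitochondrially encoded genes tested was called, and of 42 nuclear genes of the respiratory chain 3 rose and 3 fell.

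Coagulation, acute phase and apolipoprotein genes were mostly higher, and other plasma proteins were divided. Of 26 coagulation genes 13 rose and 2 fell (median 0.17), including all 3 fibrinogen chains. Fgb was at 1145, 1158 and 1270 CPM against 911, 884 and 895 CPM, and Plg (plasminogen) at 110, 119 and 113 CPM against 82.3, 84.5 and 81.8 CPM. Of 25 acute phase genes 12 rose and 3 fell (median 0.15). Hp was at 5221, 5168 and 5804 CPM against 3964, 3747 and 3806 CPM, and Steap4, described above, fell by 0.86 (SE 0.06) on the log2 scale. Of 23 other carriers and inhibitors of plasma 5 rose and 6 fell (median -0.04). Complement genes were divided too, with 4 of 23 higher and 3 lower: C8a, of the membrane attack complex, was at 17.4, 18.9 and 17.4 CPM against 33.8, 30.6 and 31.9 CPM, and Masp2, of the lectin pathway, rose (0.34, SE 0.05). Of 24 apolipoprotein and lipoprotein genes 8 rose and none fell (median 0.16), with Lrp1, a remnant receptor gene, at 1015, 1014 and 1024 CPM against 820, 832 and 852 CPM. Small changes in abundant genes passed too, in both directions: Trf (transferrin) rose by 0.19 (SE 0.02), and Alb fell by 0.06 (SE 0.02) on the log2 scale. The summed hepatocyte markers were at 32295 to 33973 CPM with siABHD6 and at 31259 to 31716 CPM with siScramble. Among them Trf alone was at 13012, 12918 and 13898 CPM against 11638, 11449 and 11729 CPM, a gap of similar size. Alb was at 11130, 11642 and 11526 CPM against 12082, 11815 and 11922 CPM. By number, 8 of the 18 markers were called higher and 1 lower. The part of this shift in the plasma protein lists was not tested.

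Lists of lipid and sugar metabolism differed in how many genes were called, and some lay near the share over all genes (15.4%). The share called was 11.5% in fatty acid oxidation and 20.8% in sterol synthesis, with triglyceride synthesis between these values. It was 33.3% in fatty acid synthesis and in glycolysis, and higher in gluconeogenesis and glycogen. These shares were not matched for level. Of 26 genes of fatty acid oxidation and ketogenesis 2 rose and 1 fell (median 0.03), of 24 genes of sterol synthesis 3 rose and 2 fell (5 rose without siScramble 3 or siABHD6 2), and of 18 genes of fatty acid synthesis 4 rose and 2 fell, with 2 higher without siScramble 3 or siABHD6 3. Scd2, a stearoyl-CoA desaturase gene, was at 23.1, 20.99 and 27.8 CPM against 13.1, 12.7 and 16.2 CPM. Of 25 genes of triglyceride synthesis and lipid droplets 4 rose and 1 fell, and the count that rose was 1 or 2 without each library other than siScramble 1. Gpat3, of glycerolipid synthesis, fell (-0.59, SE 0.13). Of 24 glycolysis genes 5 rose and 3 fell (median 0.02), and of 16 genes of gluconeogenesis and glycogen 7 rose and 1 fell (median 0.09). Gys2, the liver glycogen synthase gene, rose by 0.47 (SE 0.10) on the log2 scale, and Pck2, the mitochondrial PEP carboxykinase gene, fell (-0.44, SE 0.06). Pck1 and G6pc, the rate-setting genes of gluconeogenesis, had at most 5 and 3 counts in any hepatocyte library and were not tested.

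Of the insulin and FoxO genes followed for the study's subject, Irs1, Foxo3 and Igfbp1 were called and the others below were not. The median size of a called change was 0.27 on the log2 scale over all genes. Foxo1 was at 43.3, 42.1 and 44.5 CPM against 41.5, 43.1 and 43.2 CPM, groups that overlap (0.02, SE 0.06, adjusted p = 0.859). Akt1 (0.09, SE 0.04, adjusted p = 0.131), Akt2 (0.03, SE 0.04, adjusted p = 0.715) and Insr, the insulin receptor gene (-0.03, SE 0.04, adjusted p = 0.738), did not pass, nor did Irs2 (0.25, SE 0.09, adjusted p = 0.0723) or Ppargc1a (0.31, SE 0.16, adjusted p = 0.228). Irs1, the insulin receptor substrate gene, was at 10.8, 9.49 and 9.83 CPM against 7.24, 6.00 and 7.36 CPM, a call at a low level (0.55, SE 0.14, adjusted p = 0.0102). Foxo3 was at 70.9, 70.7 and 68.6 CPM against 82.6, 91.3 and 95.8 CPM (-0.36, SE 0.05). Igfbp1, a secreted binding protein whose gene FoxO1 induces, was at 51.9, 51.1 and 48.4 CPM against 61.0, 67.1 and 68.1 CPM (-0.37, SE 0.06). Of 31 genes of insulin, Akt and FoxO signalling 3 rose and 3 fell (median 0.01, from -0.52 for Trib3 to 0.60). Of 19 FoxO-responsive genes 4 rose, led by Gadd45b and Cited2, and 1 fell. The shares called in these lists were 19.4% and 26.3%, against 15.4% over all genes, without matching for level. Protein and phosphorylation were not analysed here.

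Summed markers of sinusoidal endothelial, stellate and Kupffer cells were lower in both groups than in the livers. Those of cholangiocytes were higher, at 716 to 929 CPM with siABHD6 and 701 to 770 CPM with siScramble, against 65.3 to 97.6 CPM in the livers. Summed over 12 sinusoidal endothelial markers, the level was 43.1 to 43.6 CPM with siABHD6 and 45.8 to 48.5 CPM with siScramble, against 226 to 339 CPM in the livers. The groups did not overlap, as in 31.2% of all single genes tested. Of the 11 endothelial markers tested, 4 had a positive and 7 a negative fold change. Only Bmp2 (0.87 to 4.17 CPM over the 6 libraries) and Lyve1 (0.40 to 1.71 CPM) were called, both lower. In the alternative settings other than the 12-library fit, Bmp2 lost its call in 4 and Lyve1 in 8. Stellate cell markers summed to 9.29, 4.56 and 8.78 CPM with siABHD6 1, 2 and 3 and to 4.89 to 5.33 CPM with siScramble. Col1a1 was most of the siABHD6 sums and a smaller part of the siScramble sums (5.02, 2.56 and 5.55 CPM against 1.94, 1.68 and 2.43 CPM). Over the 6 libraries Col1a1 had 248 counts, Acta2 125 and Reln 69. Lrat and Des had 2 counts each, Pdgfrb 3 and Dcn 9. Kupffer cell markers summed to 67.9 to 86.7 CPM and 82.2 to 89.5 CPM, nearly all of it Cd68, a lysosomal protein gene. Cd68 alone was at 63.6 to 85.8 CPM in culture and 3.73 to 14.1 CPM in the livers. Among 23 tested genes of the extracellular matrix, 7 were higher and 1 lower, and the part of stellate cell RNA in this list was not tested.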

How the data were processed

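The authors deposited raw counts per gene and FPKM values for 12 libraries. HISAT2, DESeq2 and mm39 appear in the submitters' processing notes, without versions. For the counting program, annotation and strandedness nothing is stated. Counts of the 6 hepatocyte libraries were fitted with edgeR 4.0.16 in R 4.3.3 (filterByExpr, TMM, quasi-likelihood F test, Benjamini-Hochberg adjustment over 13449 genes, calls at an adjusted p under 0.05, no covariate). The steps were tested on simulated counts. The deposited FPKM values, made by the authors, were used on a log2(FPKM + pseudocount) scale in alternatives alone, with limma 3.58.1.

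Members and the 72 gene lists were chosen with earlier results of these data known. Named genes are Abhd6, genes of the study's subject, the 12 largest protein-coding changes in each direction (mean log2 CPM 1 or more, groups apart), the 8 smallest p and the 8 largest CPM changes in each direction, the 4 largest noncoding changes in each direction, and the 3 smallest p per list and direction. Others were named after their values were seen.

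Words were searched in GENCODE M21 transcripts (GRCm38), joined by gene identifier, with a 3′ UTR of at least 50 bases for 11612 of 11780 protein-coding genes (98.6%). They were ranked by the difference in mean log2 fold change, with values limited to 1 on either side, times the square root of the number of carriers. The ranking and the 21-base window were set after fold changes were seen. An earlier ranking, by a regression with UTR length and GC content, put CTACGCA first, and a window shifted by 1 base was also tried. Python 3.11.15, numpy 2.4.6, pandas 2.3.3 and matplotlib 3.10.9 were used.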

Additional observations from a re-analysis of the deposited data

How the results depend on the processing

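Counts called were 1468 to 1873 when each library was left out in turn, with 80 to 115 genes at least 2-fold, 26 to 32 lists moving mostly one way, and 26 to 28 carriers of word 1 lower. With the replicate number as a block 2124 genes were called, and equal numbers did not deviate together (correlations of -0.0107 to -0.00354), so no pairing was assumed. Other scalings, no filter and limma-voom kept all counts within 1.5 times. A fit over all 12 libraries, which shares its estimate of spread with the livers, called 41 genes (12 at least 2-fold), 0 lists and 5 carriers, and the cause was not tested. FPKM with pseudocounts of 1 and 0.1 gave 1313 and 1302 calls, 12 and 58 at least 2-fold, and 19 and 18 carriers. At least 2-fold were 47 genes with a filter of 1 CPM in every library and 49 with DESeq2 1.42.0. A fold threshold of 1.2 left 242 calls and 13 carriers. Word 1 anywhere in the mRNA, added after the data were seen as were all settings for its carriers, gave 161 lower. The fall of Abhd6 stayed between -2.79 and -2.73 without each library. Named genes did not change direction where called, and 79 of 290 lost their call in at least 1 setting other than the 12-library fit, among them Alb (highest adjusted p 0.639), Krt8 (0.387), Gc (0.294) and Mup15 (0.119). A gene at a few CPM is limited by depth, since the median SE was 0.33 in the lowest of the 5 classes of genes by level and 0.04 in the highest.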

Other observations

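Further groups gave values that belong to no question of the study. Thyroid hormone genes moved apart: Dio1, the activating deiodinase gene, was at 9.47, 9.21 and 7.85 CPM with siABHD6 and 5.67, 5.63 and 3.48 CPM with siScramble, where Dio3 fell, and Ttr and Serpina7, both plasma carriers of the hormone, rose by 0.25 (SE 0.03) and 0.35 (SE 0.06) on the log2 scale. Of 18 hypoxia-responsive genes 5 fell and none rose, with Ndrg1 at 27.8, 25.6 and 23.1 CPM against 40.2, 43.5 and 42.6 CPM, and Hif1a and Vegfa lower by -0.36 (SE 0.04) and -0.35 (SE 0.05). Of 21 YAP and TEAD target genes 8 rose, Yap1 among them (221, 222 and 215 CPM against 177, 176 and 185 CPM), and 2 fell. Of 16 NF-kappaB targets and chemokines 5 rose and 1 fell, with Ccl2 at 212, 196 and 244 CPM against 146, 155 and 160 CPM and Cxcl10, which interferon induces, lower (-0.37, SE 0.08).

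Few noncoding genes passed. Of 823 lncRNA genes 30 were called (3.65%), and of 498 processed pseudogenes 25 (5.02%), against 17.1% of protein-coding genes. These shares were not matched for level, and the share called ran from 3.83% in the lowest class by level to 31.2% in the highest. Neat1, the lncRNA of paraspeckles, was at 359, 373 and 366 CPM against 263, 278 and 272 CPM. The largest rise was that of Gm10076 (23.6, 36.6 and 27.4 CPM against 7.17, 15.3 and 7.77 CPM), and Gm13456, a processed pseudogene, was lower (-0.96, SE 0.13). Reads of a pseudogene and its parent gene may be shared.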
